A study of Homo sapiens with 6 samples.

Results

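Untreated Kasumi-1 cells were described from the 3 control libraries of an mRNA-seq series of 6 libraries, with every gene of the deposited table taken as a member and no comparison with treated cells. Kasumi-1 is an established human cell line of acute myeloid leukemia (AML) with the t(8;21) translocation, which joins RUNX1 to RUNX1T1. Per the labels the control cells were incubated for 48 h, while a figure legend of the study gives a longer incubation with I3. The methods describe the control as DMSO at the concentration present in the I3 solution. The other 3 libraries came from cultures of the same line incubated with 0.25 μM I3, a histone deacetylase inhibitor, and were not used here. Libraries of polyadenylated RNA were made with a stranded kit from total RNA. The labels number the control samples but do not say whether they came from separate cultures, so the spread between them may be technical.

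RUNX1 encodes the DNA-binding subunit of core binding factor, and the fusion protein carries its DNA-binding domain joined to the corepressor RUNX1T1. Leukemias with this translocation resemble blasts held at the step from myeloblast to promyelocyte, and they are known for surface KIT and CD34, for myeloperoxidase in primary granules and for the neural factor POU4F1. Primary granules are filled at the promyelocyte stage, whereas secondary granule proteins appear later in neutrophil maturation.

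The table gives FPKM, the reads of a gene scaled by its exon length in kilobases and by the depth of the library, for 29810 genes by Ensembl identifier. Reads rebuilt from FPKM and exon length were whole in all 3 libraries for 95.6% of 23983 genes at a tolerance of 0.1 read, and the depth was 17663218, 17798673 and 17500319 reads in control 1, 2 and 3. A single read on 1 kb of exon was worth 0.0562 to 0.0571 FPKM. Exon length here counts all annotated exons of a gene together, so ranks and ratios between genes depend on it. A value of 0 in all 3 libraries allows up to 3 reads over the 3 libraries, and the FPKM of those 3 reads is given below as the limit of a gene at 0. Such limits cover counting error only. Values of a gene are given in the order control 1, 2 and 3, and ± is the SD over the 3 libraries (n = 3). A single value is the mean of the 3 libraries. The genes below belong to lists that held 1058 genes of the table, of which 587 were at 1 FPKM or more with a median CV, the SD as a percentage of the mean, of 7.63%. Counts and shares of a list cover only its members with a row in the table. Each count of list members at 1 FPKM or more is to be read beside 37.3% of all genes and 61.5% of protein-coding genes. Shares of protein-coding genes likewise cover only those with a row. Members of lists of over 14 genes that lay between 0 and 1 FPKM were named after their values had been seen.

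Control 1 stood apart from the other 2 libraries. Over the 11119 genes at a mean of 1 FPKM or more that were found in GENCODE release 29, the Pearson correlation of log2(FPKM + 0.5) was 0.979 and 0.980 for control 1 with control 2 and 3, and 0.986 between control 2 and 3. For 13592 genes with at least 30 rebuilt reads over the 3 libraries, the chi-square divided by its degrees of freedom was 14.03 and 9.95 for the pairs with control 1 and 4.33 for the third pair, where counting error alone would give about 1 and a copy of a library 0. The rank correlation of a library's deviation with the GC content of the transcripts was -0.499 in control 1, 0.449 in control 2 and 0.255 in control 3 across these genes, which share the libraries and are not independent replicates. In the tenth of the genes with the lowest GC content, control 1 lay 0.17 above the gene's mean on the log2 scale, while control 2 and 3 lay at -0.09 and -0.08. The median CV of the genes at 1 FPKM or more was 8.58%, and without control 1 it was 4.73%.

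Of the 29810 genes, 11128 (37.3%) had a mean of 1 FPKM or more. Of the 15616 protein-coding genes with a row in the table, 9605 (61.5%) were at that level, while GENCODE release 29 holds 19951 protein-coding genes. In all 3 libraries 5752 genes were at 0, and 1220 of them were protein-coding. The 32 genes at 1000 FPKM or more held 29.4% of all FPKM, the 279 genes from 100 to 1000 held 24.0%, the 3806 genes from 10 to 100 held 35.0% and the 7011 genes from 1 to 10 held 10.6%. The 100 highest genes held 41.5%, 41.3% and 42.2% of the FPKM of a library, and 97 or 98 of them were shared by each pair of libraries.

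**Figure D1:**
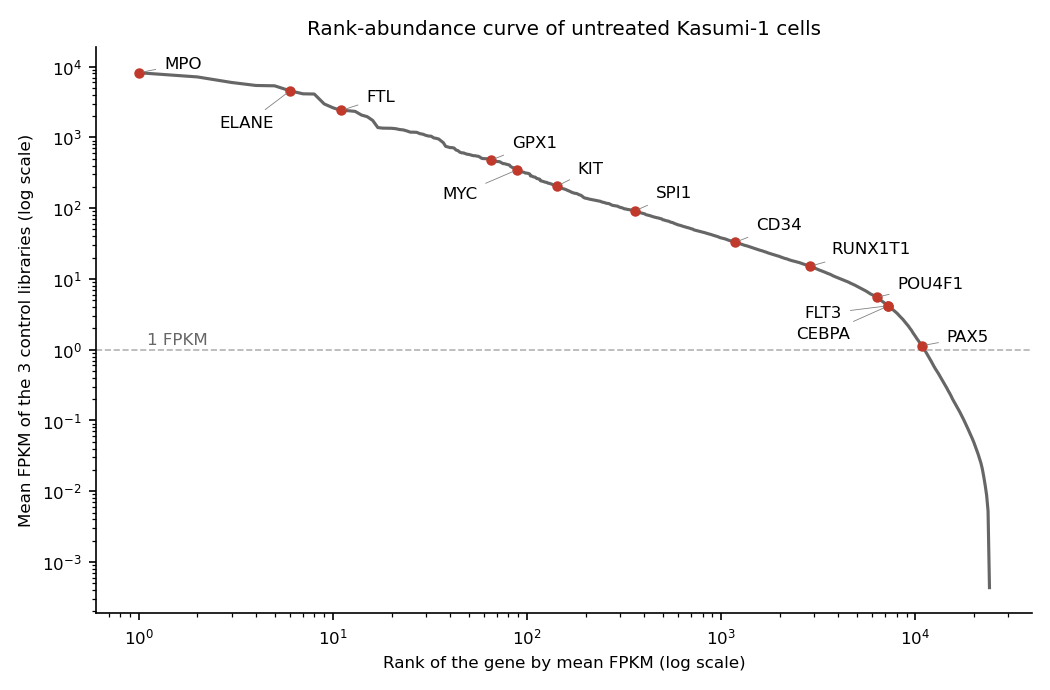
Mean FPKM of the 3 control libraries against the rank of each gene above 0, both on log scales, with 13 genes marked in red and the level of 1 FPKM as a dashed line. MPO lies at rank 1, KIT at rank 142, CD34 at rank 1178, RUNX1T1 at rank 2864 and POU4F1 at rank 6301.

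All 5 markers of the line were present, at levels that differed widely. MPO, the peroxidase of primary granules, was the highest gene of the table, at 8191, 7789 and 8612 FPKM (8197 ± 412), and took 2.84%, 2.70% and 2.98% of the counted reads. KIT, the receptor for stem cell factor, followed at 201, 198 and 214 FPKM. CD34, a sialomucin of progenitors, lay at 28.9, 36.0 and 33.8 FPKM, with control 1 the lowest. RUNX1T1 was at 16.5, 14.1 and 14.7 FPKM. POU4F1 was at 5.67, 5.77 and 5.05 FPKM. The ranges of the 3 libraries did not overlap between any neighbours in this order. In RNA from a whole culture, more cells with a transcript and more transcript per cell cannot be told apart. RUNX1, at 34.0, 30.6 and 32.5 FPKM, and RUNX1T1 are each counted as a gene, so the values do not separate transcripts of the fusion from those of the unrearranged genes.

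Of 39 genes known from t(8;21) AML, 25 (64.1%) were at 1 FPKM or more, near the 61.5% of protein-coding genes, and 7 were at 0. Their median was 3.86 FPKM, beside 0.250 FPKM for all genes and 2.86 for protein-coding genes. The highest were CLEC11A, a growth factor for haematopoietic cells, at 732, 677 and 742 FPKM, the repressor GFI1 at 128 and the junction protein JUP at 82.0. TRH, the precursor of thyrotropin-releasing hormone, was at 38.1, 37.0 and 37.4 FPKM and differed little between libraries. The B-lymphoid factor PAX5 was close to the 1 FPKM level, at 1.47, 0.921 and 1.02 FPKM. NCAM1, which encodes CD56, was at 0 with a limit of 0.00445 FPKM, and so were CACNA2D2, IL5RA and MSLN. ADGRG1 had reads only in control 2, at 0.00216 FPKM as a mean.

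The 25 highest genes were 11 mitochondrial genes, 6 genes of ribosomal proteins, 7 other protein-coding genes and the pseudogene RPS28P7. Among the other proteins were 3 enzymes of primary granules, MPO, PRTN3 and ELANE. The elongation factor EEF1A1 was at 4024, 4079 and 4198 FPKM and EEF2 at 1735. FTL, the ferritin light chain, was at 2215, 2472 and 2519 FPKM, and CALR, a chaperone of the endoplasmic reticulum, at 1378 FPKM. RPS28P7 was listed at 2382 FPKM and its parent RPS28 at 89.3; reads that fit both copies could have been assigned to either, so the level of each is uncertain. Of the 24 neighbouring pairs in this order, 18 overlapped in their library ranges, so most ranks within the top 25 were not separated.

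**Figure D2:**
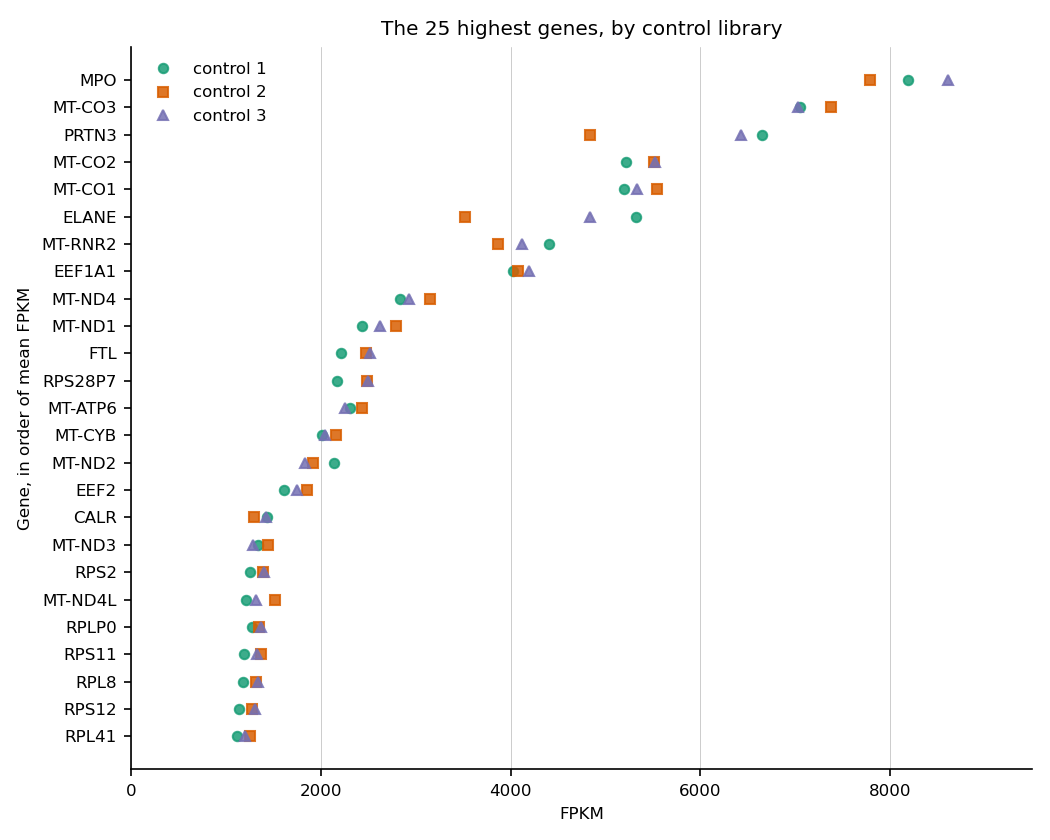
FPKM of the 25 highest genes with a symbol in control 1 (circles), control 2 (squares) and control 3 (triangles), with genes in order of mean FPKM. PRTN3 and ELANE lie lower in control 2, at 4838 and 3516 FPKM, than in the other libraries.

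Primary granule genes had the highest summed level of the lineage lists. The list held 17 genes, of which CALR, the growth factor CLEC11A, the phosphatase-related PLPPR3 and the cytotoxic granule gene NKG7 are not proteins of neutrophil granules and were set aside after their values had been seen. The 13 others, SERPINB1 and MS4A3 among them, were kept without a check that each encodes a granule protein. All 13 were at 1 FPKM or more and 7 at 100 or more. Of all 17 genes 16 were at 1 FPKM or more, beside 61.5% of protein-coding genes. The exception was NKG7, which is among the 4 set aside. BPI, a primary granule gene under 1 FPKM, was placed in the next list, so these counts depend on how members were assigned. Together they summed to 17453 to 22214 FPKM per library, 7.24% of all FPKM. With the 4 genes it was 8.04%. PRTN3, the serine protease proteinase 3, was at 6648, 4838 and 6430.4 FPKM. ELANE, neutrophil elastase, was at 5319, 3516 and 4832 FPKM. AZU1, the antimicrobial protein azurocidin, was at 856, 566 and 698 FPKM. CFD, complement factor D, was at 617, 335 and 411 FPKM, and CTSG, the protease cathepsin G, was at 195, 118 and 205 FPKM. In each of these genes control 2 was the lowest library. The eosinophil ribonucleases were lower, with RNASE2 at 39.7, 29.5 and 46.8 and RNASE3 at 1.36 FPKM, and the lysozyme gene LYZ was at 9.19 FPKM. Control 2 was the lowest library for all 13 genes, whereas control 2 was the lowest for 3454 of all 11128 genes at 1 FPKM or more. It was also the lowest for CALR, CLEC11A and PLPPR3, by less, with CVs of 5.64%, 4.90% and 2.43%. The median CV of the 13 genes was 20.6%, beside 8.58% for all genes at 1 FPKM or more. Their median GC content was 56.0%, a range in which control 1 lay at -0.07 and control 2 at 0.05 on the log2 scale from the mean of the libraries over all genes, and the part of GC content in this difference was not tested.

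Several of these genes are neighbours. On chromosome 19 of GRCh38, in GENCODE release 29, AZU1 lies at chr19:825097-832018, PRTN3 at chr19:840960-848175 and ELANE at chr19:851014-856247, all on the plus strand, and CFD starts 8.63 kb beyond the start of ELANE. PLPPR3, which lies between PTBP1 and AZU1, was at 154, 152 and 159 FPKM. In the 100 kb on either side, the splicing regulator PTBP1 was at 107 FPKM as a mean, and the next genes beyond CFD were lower, with MED16 at 18.4, R3HDM4 at 16.5 and ARID3A at 14.4 FPKM. Others were close to 0, with KISS1R at 0.191 and MISP at 0.00631 FPKM, and LINC01836 was at 0. These neighbours were chosen after the levels of ELANE and PRTN3 had been seen.

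Promoter sequences are shown for PRTN3, AZU1 and CTSG, 3 serine protease homologues of the granules, which were chosen after their letters had been seen. Windows of MPO and ELANE were not used here. The sequences printed are the 150 bases before the RefSeq start on GRCh38.p14, 5′ to 3′ on the strand of the gene, at chr19:840849-840998 (plus strand), chr19:827687-827836 (plus strand) and chr14:24576251-24576400 (minus strand). Capitals mark the letters GAGGAA (a core that PU.1 binds), TTNNGNAA (a C/EBP form), CAACTG or CAACGG (MYB forms) and TGTGGT or TGCGGT (RUNX forms), on either strand.
PRTN3: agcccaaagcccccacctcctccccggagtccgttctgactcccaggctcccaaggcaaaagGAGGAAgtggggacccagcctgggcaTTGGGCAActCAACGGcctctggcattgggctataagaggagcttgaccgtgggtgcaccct
AZU1: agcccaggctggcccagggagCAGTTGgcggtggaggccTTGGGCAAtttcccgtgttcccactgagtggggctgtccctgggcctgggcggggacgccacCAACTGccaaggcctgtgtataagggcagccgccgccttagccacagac
CTSG: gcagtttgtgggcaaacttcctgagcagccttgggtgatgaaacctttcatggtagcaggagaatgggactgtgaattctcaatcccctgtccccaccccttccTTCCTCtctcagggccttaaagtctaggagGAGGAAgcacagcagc
The window of PRTN3 held 1 match to GAGGAA, 1 to TTNNGNAA and 1 to CAACGG, and no capitals overlap. The window of AZU1 held 1 match to TTNNGNAA and 2 to CAACTG. Both TTNNGNAA matches read TTGGGCAA. The window of CTSG held GAGGAA once on each strand and no other of these letters. Over the 250 bases before the start, 2 of the 8 kept genes of the granule list with a single window held GAGGAA, beside 23.6% of all 35116 windows. TTNNGNAA was in 5 of the 8, beside 33.2% of all windows. CAACTG was in 1 of the 8 and CAACGG in 3, beside 8.996% and 4.51%. With CALR, CLEC11A, NKG7 and PLPPR3 included, GAGGAA was in 2 of 12 windows (16.7%) and TTNNGNAA in 5 of 12 (41.7%). CAACTG was then in 2 of 12 and CAACGG in 4 of 12. The shares thus depend on which genes were kept, a choice made after their values had been seen. The windows of RNASE2 and RNASE3 each held both CAACGG and TTNNGNAA. These began 181 and 145 bases before the start in RNASE2 and 130 and 94 in RNASE3. Whether these 2 windows are copies of a shared sequence was not tested, so they may not count as separate. None of the 8 held TGTGGT or TGCGGT, which occurred in 10.98% and 5.84% of all windows. A match is a description of the letters and not of binding.

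Secondary granule and mature neutrophil genes were low. Of 17 members, 3 were at 1 FPKM or more, and the list summed to 84.5 to 112 FPKM per library, most of it from CSF3R. CSF3R, the receptor for granulocyte colony-stimulating factor, was at 103, 79.3 and 84.8 FPKM. S100A9, a subunit of calprotectin, was at 4.32, 2.04 and 4.06 FPKM, whereas its partner S100A8 was at 0 with a limit of 0.0563 FPKM. CEACAM8, CRISP3, LCN2 and S100A12 were also at 0. BPI, a protein of primary granules that was listed with mature neutrophils, was at 0.835, 0.280 and 0.569 FPKM.

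Markers of monocytes were present in part. Of 21 members, 6 (28.6%) were at 1 FPKM or more, below the 61.5% of protein-coding genes, and 3 were at 0. TLR2 was at 22.0, 15.8 and 17.3 FPKM, the protease CTSD at 17.0, the Fc receptor FCGR1A at 5.91, the protease CTSS at 5.15 and the receptor CSF1R at 4.79 FPKM. The defining antigen CD14 had reads only in control 3, at 0.0303 FPKM, and ITGAM, which encodes CD11b, was at 0.130, 0.0496 and 0.0605 FPKM. ADGRE1, FCN1 and S100A10 were at 0. Of the dendritic list, 4 of 13 members (30.8%) were at 1 FPKM or more. CD83 was the highest, at 13.6, 11.1 and 11.8 FPKM, and CD1C and CD207 were at 0.

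**Figure D3:**
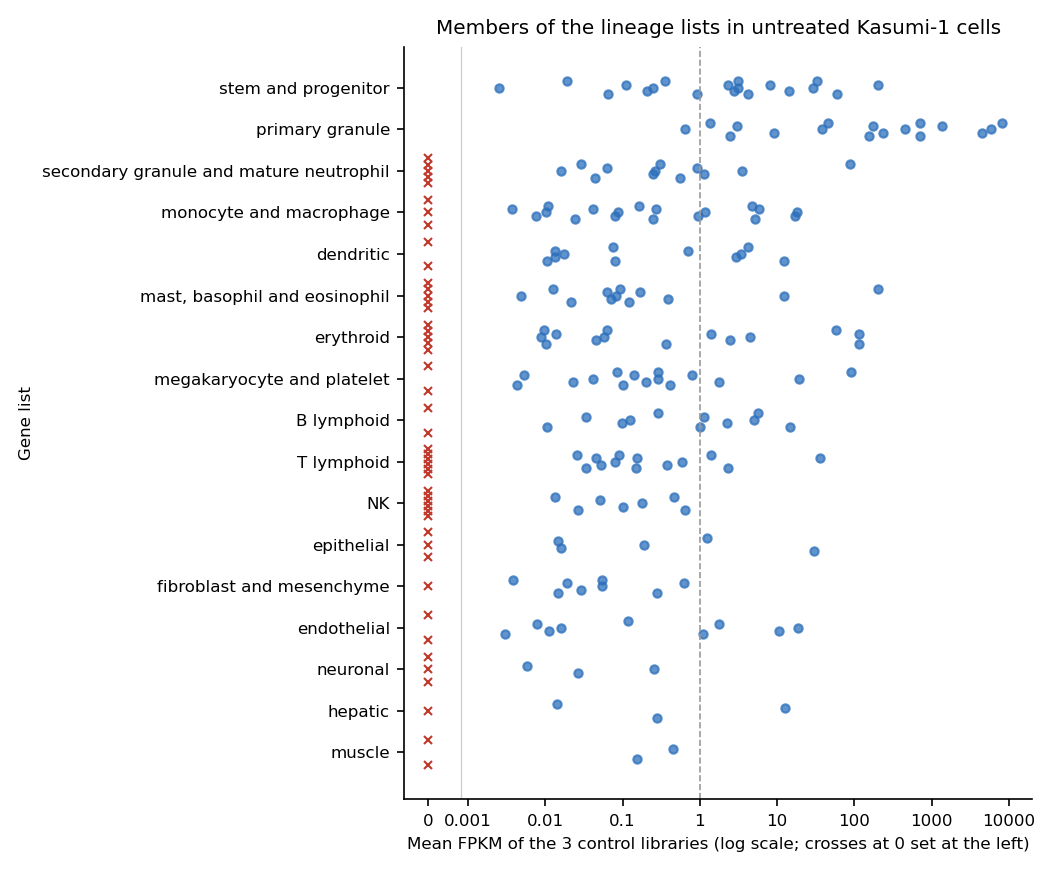
Mean FPKM of each member of the lineage lists on a log scale, 1 row per list, with members at 0 in all 3 libraries drawn as crosses at the left and 1 FPKM as a dashed line. Primary granule genes reach 8197 FPKM with none at 0, while NK, fibroblast, neuronal and muscle genes have no member at 1 FPKM or more.

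Stem and progenitor genes were at 1 FPKM or more for 11 of 19 members (57.9%), near the 61.5% of protein-coding genes, and none was at 0. After KIT came the factor MYB at 62.1, 56.8 and 58.4 FPKM, CD34, SOX4 at 29.4 and ERG at 14.1. PROM1, which encodes CD133, had reads only in control 2, at 0.00252 FPKM as a mean, and THY1 was at 0.0190 FPKM. HOPX and HLF were at 0.0656 and 0.209 FPKM. CD38 was at 1.17, 0.615 and 0.975 FPKM, with control 1 and 3 above control 2.

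Erythroid, megakaryocytic and mast cell genes were also present in part. Of the erythroid list 6 of 19 members were at 1 FPKM or more, led by GYPC, glycophorin C, at 112, 120.1 and 118 FPKM, the transferrin receptor TFRC at 117 FPKM and the carbonic anhydrase CA2 at 57.4. The globin gene HBA2 was at 0, as were ACKR1, CA1 and HBG2, and GATA1 was at 0.0377, 0.150 and 0 FPKM. HBA1 and HBA2 are near-identical copies whose reads cannot be told apart with certainty. Of the megakaryocyte list, 3 of 17 were at 1 FPKM or more, with PLEK at 92.9, 87.2 and 91.9 FPKM, FLI1 at 19.3 and RAB27B at 1.75, and PPBP and VWF were at 0. Of the mast cell, basophil and eosinophil list, only KIT and GATA2 were at 1 FPKM or more, while CLC, IL1RL1, IL5RA, MS4A2 and PRG2 were at 0.

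Lymphoid genes differed by list. Of the B-lymphoid list, which named 22 genes, 6 of the 13 members with a row (46.2%) were at 1 FPKM or more. The shares were 37.3% for all genes and 61.5% for protein-coding genes. SDC1, which encodes CD138, was at 14.4, 13.6 and 15.7 FPKM, the B-cell receptor subunits CD79B and CD79A at 5.59 and 1.01, and IGLL1 of the surrogate light chain at 5.08. VPREB3 and TNFRSF17 were at 0. Of the T-lymphoid list 3 of 19 were at 1 FPKM or more, and CD4, which monocytic cells also carry, was well above the rest at 40.2, 31.7 and 35.1 FPKM. CD8A was at 2.76, 1.72 and 2.55 and CD247 at 1.39 FPKM, while CD3E was at 0.0795. CD8B, IL7R, LAT, PTCRA and TRAT1 were at 0. None of 13 NK genes reached 1 FPKM; NKG7 was the highest, at 0.606, 0.300 and 1.04 FPKM, and GNLY, GZMA, KIR2DL4, KLRF1 and NCAM1 were at 0.

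Markers of cells other than blood were checked as well. EPCAM, an epithelial adhesion molecule, was at 31.1, 28.7 and 29.2 FPKM and the splicing factor ESRP1 at 1.23, while the epithelial keratins KRT8 and KRT18 were at 0 with limits of 0.00823 and 0.0176 FPKM. The epithelial list as a whole had 2 of 8 members at 1 FPKM or more. The endothelial list had 4 of 11, with ENG at 15.4, 21.02 and 19.3 FPKM and ESAM at 10.6, whereas CDH5 was at 0.0158 FPKM and ROBO4 and VWF were at 0. The protease inhibitor SERPINA1, which monocytes and hepatocytes make, was at 16.6, 9.60 and 12.2 FPKM, and CYP3A4 was at 0. None of 9 fibroblast, 6 neuronal or 4 muscle genes reached 1 FPKM. VIM, the intermediate filament vimentin, had reads only in control 1, at 0.0439 FPKM, with 24.4% of its exon bases inside exons on the opposite strand, and how the counting bears on such low values was not tested. TUBB3, GAP43, GFAP, MYH7, RYR1 and FAP were at 0.

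Over all receptor lists, 91 of 231 genes (39.4%) were at 1 FPKM or more, a share below that of protein-coding genes (61.5%) and near that of all genes (37.3%), with 22 at 10 or more and 26 at 0 and a median of 0.291 FPKM. Of 49 receptor tyrosine kinases 14 (28.6%) were at 1 FPKM or more. KIT was above the next kinase, RET, by a ratio of 14.01 between the means, and RET, the receptor for ligands of the GDNF family, was at 16.1, 12.2 and 15.5 FPKM. IGF1R, the receptor for insulin-like growth factors, was at 10.5, 11.3 and 11.6, EPHB4 at 9.75, RYK at 8.04 and FGFR1 at 7.17 FPKM. PTK7, LMTK2 and INSR lay between 5.51 and 5.91 FPKM. FLT3, a kinase often mutated in AML, was at 4.56, 4.15 and 3.81 FPKM, a range that overlapped that of CSF1R. EPHB6, MERTK and the VEGF receptor FLT1 were at 2.69, 1.83 and 1.09 FPKM, and KDR, another VEGF receptor, had reads only in control 2. EPHA3, INSRR, MET and MUSK were at 0. The ranges overlapped for 4 of the 13 neighbouring pairs in this order.

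Of 41 haematopoietic cytokine receptors, 21 (51.2%) were at 1 FPKM or more, beside 61.5% of protein-coding genes. CSF3R was the highest and IL2RG, the common gamma chain, was at 52.4, 56.0 and 52.0 FPKM, with 50.8% of its exon bases inside exons of another gene on the same strand. IL27RA was at 24.0, 25.8 and 22.8, the interferon gamma receptor chain IFNGR1 at 10.03 and IL13RA1 at 9.92 FPKM. The interferon receptor chains IFNAR1 and IFNGR2 were at 9.74 and 8.48 FPKM, IL1RAP at 5.99, 4.94 and 5.58, IL17RA at 4.86 and IL6ST, the shared chain gp130, at 3.92. IL3RA, the alpha chain for interleukin 3, was at 3.84, 3.81 and 2.64 FPKM and the common beta chain CSF2RB at 2.97. EPOR, IFNAR2, IL10RB and IL17RC lay between 2.44 and 2.89 FPKM. IL4R, IL15RA, IL6R, IL11RA and GHR lay between 1.12 and 1.42 FPKM. The genes CRLF2, IL1RL1, IL21R, IL22RA1, IL5RA and IL7R were at 0. Of the 20 neighbouring pairs, 15 overlapped.

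**Figure D4:**
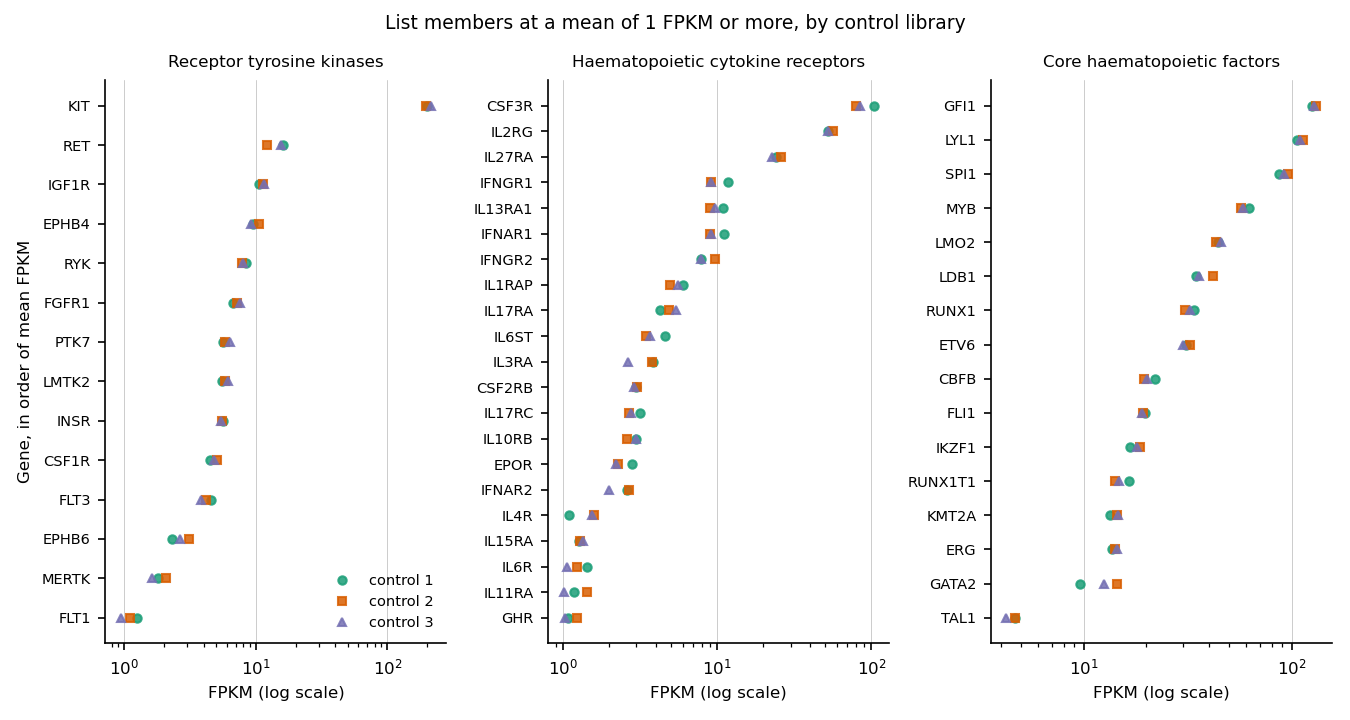
FPKM on a log scale in control 1 (circles), control 2 (squares) and control 3 (triangles) for the receptor tyrosine kinases, haematopoietic cytokine receptors and core haematopoietic factors at a mean of 1 FPKM or more. KIT, at 204 FPKM, lies apart from the other kinases, whereas GFI1, LYL1 and SPI1 lie within 91.5 to 128 FPKM.

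In the list of TNF family and death receptors, TNFRSF1A, the main receptor for TNF, was the highest, at 65.5, 70.5 and 69.4 FPKM, followed by LTBR at 10.5. The TRAIL receptors TNFRSF10A and TNFRSF10D were at 5.92 and 4.64 FPKM, while FAS was at 0.0310. Of 25 members of that list 10 were at 1 FPKM or more, and NGFR, TNFRSF17, TNFRSF18 and TNFRSF4 were at 0. Of 28 chemokine and chemoattractant receptors 5 were at that level. The sphingosine phosphate receptor S1PR4 was at 55.7, 57.1 and 54.5 FPKM, the complement receptor C3AR1 at 7.57, and the homing receptor CXCR4 at 3.72, 1.62 and 1.88, higher in control 1 than in the other libraries. CCR6, CCR9, CXCR5 and FPR3 were at 0. Pattern receptors were at 1 FPKM or more for 9 of 22, with STING1 at 13.8, 14.3 and 13.95 FPKM, CGAS at 11.5, IFIH1 at 4.25 and NOD1 at 4.08 after TLR2. LY96, TLR10, TLR5 and TLR7 were at 0.

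Receptors of developmental pathways were expressed in part. Of the TGF-beta, BMP, Notch and Wnt receptors 14 of 29 were at 1 FPKM or more and none was at 0, with TGFBR2 at 31.3, 33.6 and 32.2, LRP5 at 24.7, NOTCH1 at 12.7 and LRP6 at 11.9 FPKM. Of 37 nuclear receptors 18 were at 1 FPKM or more. ESRRA was at 19.3, 21.8 and 22.2 FPKM, RXRB at 16.5, the glucocorticoid receptor NR3C1 at 14.8, NR1H2 at 12.2 and NR2C2 at 9.76. The retinoic acid receptor RARA, at 2.44, 3.95 and 2.89 FPKM, was chosen after its values had been seen. RXRG and THRB were at 0.

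Most core haematopoietic factors were high, with a spread near that of other genes at such levels. Of 20 factors 16 (80%) were at 1 FPKM or more, beside 61.5% of protein-coding genes, and 15 were at 10 or more. The median CV of those at 1 FPKM or more was 4.83%. For all genes of the table it was 6.57% from 10 to 100 FPKM and 5.17% from 100 to 1000. GFI1 led at 128 ± 3.39 FPKM, followed by LYL1 at 109 ± 3.61 and SPI1, which encodes PU.1, at 91.5 ± 4.46. MYB, at 59.1 ± 2.73 FPKM, LMO2, at 44.5 ± 1.28, and LDB1, which bridges LMO2 complexes, at 37.4 ± 3.81, came next. RUNX1 and ETV6 were at 32.4 and 31.1 FPKM, CBFB, the partner subunit of RUNX1, at 22.1, 19.5 and 20.1, and FLI1, IKZF1, KMT2A and ERG lay between 14.1 and 19.3. GATA2 was at 9.57, 14.5 and 12.5 FPKM with control 1 the lowest, and TAL1 at 4.53. The other 4 factors were under 1 FPKM. ZBTB16 was at 0.471, 0.979 and 0.753 FPKM, GFI1B and MEIS1 were at 0.00619 and 0.00520 FPKM, and MECOM, which encodes EVI1, was at 0 with a limit of 0.00622 FPKM. GFI1 and GFI1B, close relatives, thus lay far apart in level.

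Members of single factor families differed widely. All 7 genes of the RUNX, CBF and ETO list were at 1 FPKM or more, with RUNX3 at 11.8, 13.7 and 12.2 FPKM, CBFA2T2 at 4.84, RUNX2 at 4.54 and CBFA2T3 at 4.40. The RUNX1T1 value was 3.12 times that of CBFA2T2 and 3.43 times that of CBFA2T3, its paralogues. These ratios depend on the exon lengths used, which were 13535, 9457 and 5972 bases for the 3 genes. All 7 genes of the C/EBP list, which holds CEBPZ by its name only, were also at 1 FPKM or more. CEBPD was at 36.1, 34.9 and 33.8 FPKM and CEBPE, the factor of the promyelocyte and later stages, at 30.8. CEBPA, the factor of granulocytic commitment, was at 3.83, 4.46 and 4.15 FPKM, the lowest mean of the list. Of its exon bases 43.4% lie inside exons on the opposite strand. CEBPZ, CEBPG, CEBPB and DDIT3 were at 16.9, 15.7, 6.12 and 4.76 FPKM, and the ranges of CEBPA and DDIT3 overlapped. Of the GATA list only GATA2 reached 1 FPKM; GATA3 was at 0.157, 0.674 and 0.299 FPKM, GATA6 had reads only in control 3 and ZFPM2 was at 0.

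The HOX genes were low. HOXA5 was at 6.50, 6.32 and 6.39 FPKM, HOXA10 at 5.51, HOXA11 at 2.65 and HOXA13 at 1.61, and the other 7 HOXA genes were under 1 FPKM. HOXA9 was at 0.168, 0.241 and 0.208 FPKM, with 15.9% of its exon bases inside exons of another gene on the same strand. HOXB6, the HOXB gene with a row in the table used here, had reads only in control 2, and of the HOXC and HOXD list HOXD13 was at 1.19, 1.53 and 1.66 FPKM and HOXD10 at 0. The cofactors MEIS1 and PBX3 were at 0.00520 and 0.0124 FPKM, whereas IRX3 was at 44.9, 48.6 and 53.0 FPKM, PBX2 at 34.5, TGIF2 at 20.5 and IRX5 at 9.31. MEIS2, PBX4, PKNOX1 and TGIF1 lay between 1.60 and 3.59 FPKM.

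Of the ETS factors 16 of 23 (69.6%) were at 1 FPKM or more, beside 61.5% of protein-coding genes. After SPI1 and ETV6 came ETS2 at 27.6, 30.7 and 26.5, ERF at 25.6 and ELF1 at 24.9 FPKM. ETS1 had reads only in control 2, at 0.00524 FPKM as a mean. MYC was the highest factor of all lists, at 323, 368 and 359 FPKM, and its partner MAX was at 9.74. MYCN was at 3.85, 4.49 and 2.57 and MYCL at 0.0634 FPKM. Of the basic helix-loop-helix factors TCF3 was at 39.4, 46.6 and 40.4, TCF12 at 16.8, ID1 at 19.2, ID3 at 3.10 and ID2 at 2.92 FPKM, and HES1 was at 0.210. The stress factor ATF4 was at 167, 179 and 167 FPKM, JUND at 49.9, JUNB at 27.8, FOSL2 at 14.3 and JUN at 12.8, and EGR3 and EGR4 were at 0.

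STAT5A was at 38.9, 48.8 and 46.3 FPKM, STAT5B at 24.5, STAT3 at 24.3 and STAT6 at 15.3, and 12 of 14 IRF and STAT genes were at 1 FPKM or more. KLF16 led the KLF list at 16.6, 18.7 and 17.7 FPKM, where 11 of 15 reached 1 FPKM and KLF17 was at 0. SOX4 and SOX12 were the SOX genes at 1 FPKM or more, at 29.4 and 20.9 FPKM, and SOX21 was at 0. POU2F1 was at 5.81, 5.19 and 5.85 FPKM, a range that overlapped that of POU4F1, and POU2F2 at 1.63, while the relative POU4F3 was at 0.0954 and POU1F1 at 0. Besides PAX5, PAX8 was at 0.622 and PAX6 at 0.00637 FPKM. Of the pluripotency genes LIN28B, an RNA-binding protein that blocks let-7 processing, was at 5.53, 5.44 and 5.83 FPKM, its relative LIN28A at 0.0283 and NANOG at 0. Across all factor lists 110 of 174 genes (63.2%) were at 1 FPKM or more, near the 61.5% of protein-coding genes. Their median was 3.61 FPKM, beside 2.86 for protein-coding genes.

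Of the antigens used in AML panels 23 of 36 (63.9%) were at 1 FPKM or more, near the 61.5% of protein-coding genes. The myeloid antigen ANPEP, which encodes CD13, was at 41.4, 54.2 and 47.9 FPKM, and CD33, a lectin of myeloid cells, at 11.1. The adhesion genes CD99, CD44 and SPN were at 63.0, 31.6 and 25.8 FPKM. FUT4, which makes the CD15 carbohydrate, was at 15.7, 13.5 and 13.7 FPKM, CD200 at 13.2, CD96 at 10.8 and PTPRC, which encodes CD45, at 9.07. The don't-eat-me signal CD47 was at 7.92, 6.22 and 6.32 FPKM and its receptor SIRPA at 17.3. CLEC12A, CD82 and HAVCR2 were close to the 1 FPKM level, at 1.32, 1.11 and 1.08 FPKM. CD7 and CD2 were at 0.0896 and 0.0340 FPKM, and NCAM1 was at 0. Across all surface lists 73 of 154 genes (47.4%) were at 1 FPKM or more, below the 61.5% of protein-coding genes, and 13 were at 0.

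The integrin chains ITGB1, ITGA5, ITGA4 and ITGB2 were at 90.7, 34.9, 31.4 and 22.7 FPKM, chains of the fibronectin receptors among them. The leukocyte alpha chains ITGAL, ITGAX and ITGAM, which pair with ITGB2, were at 0.184, 0.0879 and 0.0800 FPKM. Of the tetraspanins 16 of 28 were at 1 FPKM or more, with CD63, CD37, CD81 and CD53 at 66.7, 32.4, 31.5 and 30.8 FPKM. Of the Siglecs only CD33 reached 1 FPKM, and SIGLEC10 followed at 0.597. Of the adhesion list 14 of 24 were at 1 FPKM or more; ALCAM was at 19.0, 17.6 and 17.3 FPKM and VCAM1 at 0.

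Genes of antigen presentation were uneven. The class I light chain B2M was at 147, 120.1 and 140.4 FPKM, HLA-E at 63.3 and HLA-B at 35.1, 17.9 and 27.5. Control 2 was the lowest for 6 of 9 class I genes at 1 FPKM or more, beside 3454 of all 11128 genes. The peptide transporter TAP1 was at 0.779, 0.380 and 0.537 FPKM. HLA genes are polymorphic and near-identical, so reads assigned to each are uncertain. Of class II, the invariant chain CD74 was at 48.7, 49.1 and 45.8 FPKM, the factor RFX5 at 20.4, 20.9 and 21.8 and HLA-DRA at 7.43, while HLA-DRB1 was at 0.338 and the activator CIITA at 0.449. HLA-DMB, HLA-DOA and HLA-DQA1 were at 0. Of the checkpoint genes 8 of 18 were at 1 FPKM or more, with LGALS9, PVR and NECTIN2 at 15.5, 11.6 and 8.76 FPKM, whereas CD274, which encodes PD-L1, had reads only in control 2 and CD276 was at 0.

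Metabolic genes were at 1 FPKM or more in a larger share than the lineage, receptor, factor or surface lists. Of 328 genes, 259 (79.0%) were at 1 FPKM or more, beside 61.5% of protein-coding genes. At 100 FPKM or more were 42 and at 0 were 14, with a median of 15.1 FPKM. All 13 protein genes of mitochondrial DNA were above 10 FPKM, from 17.8 FPKM for MT-ATP8 to 7153 for MT-CO3. With the mitochondrial ribosomal RNAs, mitochondrial genes held 13.8% to 14.4% of FPKM and 3.90% to 4.04% of reads. In glycolysis, GAPDH was at 939.9, 981 and 987 FPKM, ENO1 at 500.2, LDHB at 418, TPI1 at 263 and PGK1 at 131. Among isozymes HK1 and HK2 were at 32.1 and 40.0 FPKM, chosen after their values had been seen, while HK3 was at 0.120 and PKLR was at 0.

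All 9 measured pentose phosphate genes were above 1 FPKM, from RPE at 7.55 to PGD, the 6-phosphogluconate dehydrogenase, at 190.2, 221 and 208 FPKM, and TKT and TALDO1 were at 94.0 and 73.5. All 24 genes of the TCA cycle were too, with IDH2 at 154, 175 and 167 FPKM, MDH2 at 102, FH at 48.6, CS at 45.3 and SDHB at 39.1. IDH1, the cytosolic form, was at 12.1, 10.3 and 9.65 FPKM and was chosen after its value had been seen. Control 1 was the lowest library for 8 of the 9 pentose phosphate genes and 13 of the 24 TCA cycle genes, beside 4146 of all 11128 genes. The median GC content of the pentose phosphate genes was 53.7%. Over all genes in that range control 1 lay at -0.05 and control 2 at 0.04 on the log2 scale from the mean of the libraries. The part of GC content in this difference was not tested. In glycogen metabolism, PYGL, the liver form of glycogen phosphorylase, was at 95.3, 108 and 104 FPKM and the brain form PYGB at 43.6, while the muscle form PYGM was at 0.0947 and G6PC1 at 0.

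Lipid synthesis genes were high. FASN, the fatty acid synthase, was at 249, 284 and 247 FPKM, the desaturase SCD at 188, ACLY at 117 and FADS2 at 83.9, and all 20 members of that list were at 1 FPKM or more. Of the cholesterol genes 23 of 24 were at 1 FPKM or more, with FDFT1 at 105, 97.0 and 94.5, HMGCS1 at 83.6, SREBF2 at 81.0 and SQLE at 80.8. Control 1 was the highest library for 17 of these 23 genes, beside 4800 of all 11128. Their median GC content was 53.7%, and the part of GC content was not tested. Among them were MSMO1, at 28.7, 16.9 and 15.2 FPKM, and IDI1, at 76.3, 51.4 and 51.9, both chosen after their values had been seen. Of the fatty acid oxidation genes 15 of 19 reached 1 FPKM, led by HADHA at 93.9, 94.4 and 96.0 and ECHS1 at 50.2. Control 1 was the lowest library for 11 of these 15, beside 4146 of all 11128.

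**Figure D5:**
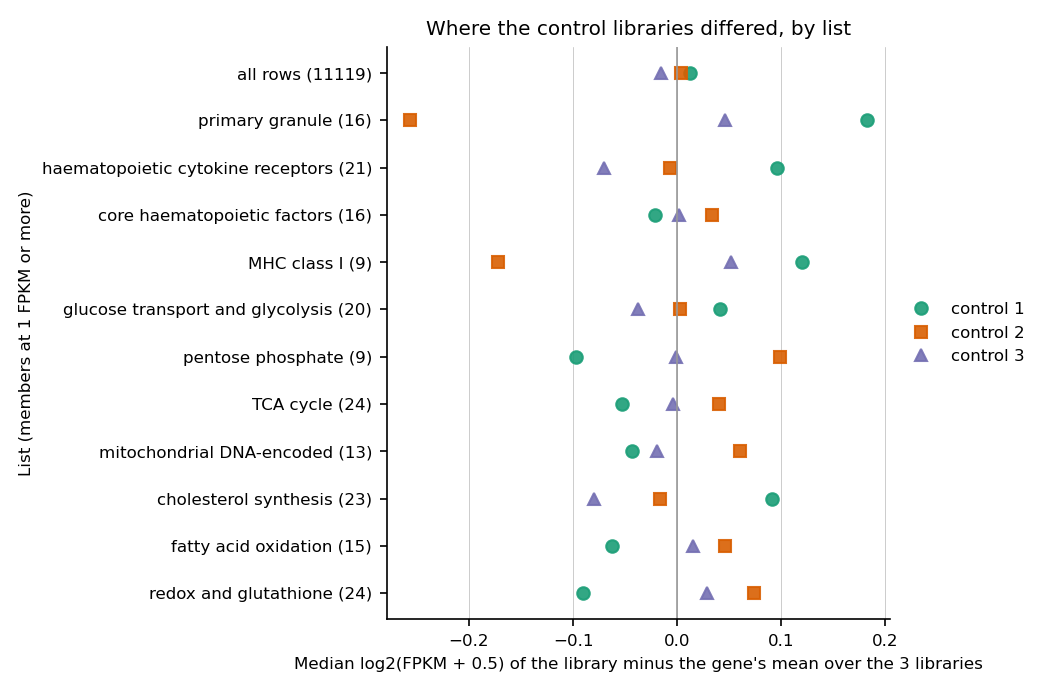
Median deviation of each control library from the gene's mean over the 3 libraries on the log2(FPKM + 0.5) scale, for all genes and 11 lists chosen after their values had been seen, with the number of members at 1 FPKM or more in brackets. Members of the primary granule list, CALR, CLEC11A and PLPPR3 included, lie at -0.26 in control 2 and 0.18 in control 1, and pentose phosphate genes at -0.10 in control 1 and 0.10 in control 2. The part of GC content in these deviations was not tested.

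Nucleotide synthesis genes were present throughout, with 21 of 22 at 1 FPKM or more. IMPDH2, the rate-limiting enzyme of guanine nucleotide synthesis, was at 198, 219 and 208 FPKM, PAICS at 115, APRT at 96.5 and TK1 at 95.04. Genes that handle the nucleoside drug cytarabine were also present. The transporter SLC29A1 was at 38.6, 44.4 and 41.8 FPKM, the activating kinase DCK at 12.5, the deaminase DCTD at 23.0 and the triphosphatase SAMHD1 at 7.94, while cytidine deaminase CDA was at 0 with a limit of 0.0588 FPKM. Of the drug transporters ABCC1 and ABCC4 were at 17.97 and 14.3 FPKM, ABCB1, which encodes P-glycoprotein, was at 0.722, 0.968 and 0.571 and ABCG2 at 0. ALDH1A1 and CYP3A4 were also at 0.

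In amino acid metabolism MAT2A was at 78.7, 74.8 and 71.1, AHCY at 71.4, PSAT1 at 48.9 and SHMT2 at 34.7 FPKM, and 16 of 22 serine and one-carbon genes reached 1 FPKM. Of the glutamine, asparagine and arginine genes 16 of 26 did, with GLUL at 60.8, 56.3 and 58.1, SLC1A5 at 51.9 and SLC7A5 at 51.0. ASNS, the asparagine synthetase, was at 0.191, 0.126 and 0.231 FPKM, with 44.6% of its exon bases inside exons of another gene on the same strand, and ASS1, the argininosuccinate synthase, was at 0.508. Polyamine genes were led by ODC1 at 139.6, 144 and 145 and SRM at 119.8 FPKM, and the creatine kinase CKB was at 92.9. Of the NAD genes NADK was at 19.7, 22.6 and 21.03 and NAMPT at 9.10 FPKM, and IDO2 and TDO2 were at 0.

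Redox genes were high, with 24 of 28 at 1 FPKM or more and 8 at 100 or more. GPX1 was at 413, 528 and 490.1 FPKM, GSTP1 at 221, TXN at 198, PRDX5 at 191 and GPX4 at 154. Control 1 was the lowest library for 17 of the 24, beside 4146 of all 11128 genes at 1 FPKM or more. Of the haem and iron genes, ALAS1, the first enzyme of haem synthesis outside the erythron, was at 70.0, 63.2 and 63.5 FPKM and the erythroid form ALAS2 at 0.00878, while HMOX1 was at 0.0945. FTH1, the ferritin heavy chain, was at 30.1, 33.2 and 25.9 FPKM against 2402 for FTL; 62.4% of the FTH1 exon bases lie in exons of a gene on the opposite strand.

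The spread of single genes differed widely. At a mean of 10 FPKM or more, the 5 lowest CVs belonged to ORAI2, CDYL, EPB41L4A-AS1, GTSF1 and B4GALT5, and ORAI2, a calcium channel subunit, was at 15.7, 15.8 and 15.7 FPKM. The 5 highest belonged to SNORD14A, MIR1244-2, RPL21P16, P4HA1 and MNDA, the first 2 of which are small RNAs. P4HA1, a prolyl hydroxylase of collagen, was at 37.6, 20.3 and 19.7 FPKM and the myeloid nuclear gene MNDA at 17.4, 8.79 and 9.88, both higher in control 1. The glycolytic ALDOC, at 5.34, 1.96 and 2.07 FPKM, and the lactate exporter SLC16A3, at 3.81, 1.72 and 1.68, were also high in control 1. ENO2, at 0.979, 0.249 and 0.4004 FPKM, and the creatine transporter SLC6A8, at 1.95, 0.225 and 0.239, were so too. These 4 genes were chosen after their values had been seen, and the mean of each lay above its values in control 2 and 3.

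Levels were lower in genes with over 10% of their exon bases inside another gene on the same strand. Among protein-coding genes without exon bases inside exons of another gene on the same strand, the median was 3.20 FPKM over 13063 genes, and with up to 10% of the bases overlapped it was 3.56 over 1338. With 10 to 50% of the bases overlapped it was 0.97 over 882 genes, with 50 to 90% it was 0.0637 over 273, and with 90 to 100% it was 0.00861 over 60. On the opposite strand the median was 2.49 FPKM with no overlap over 9694 genes, 2.85 with 10 to 50% over 1843 and 0.510 with 50 to 90% over 120. RPS10, a gene of the small ribosomal subunit with 39.4% overlap, was at 0.345, 0.479 and 0.626 FPKM, and IRF9, with 48.4%, at 0.0794. Among the genes at 0, LAT had 47.7% overlap, HBG2 57.3%, CCR6 69.2% and PRG2 43.0%, and the part of overlap in these values was not tested.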

How the data were processed

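Total RNA of the 3 control samples was made into libraries of polyadenylated RNA using a stranded kit. Values were deposited as FPKM per gene, and the submitters' processing notes name Trimmomatic, HISAT2, HTSeq, Cufflinks and hg38; no counting mode, strand setting, annotation release or tool version was found in the labels or methods. The columns of the treated libraries were not used. Exon lengths, positions and overlaps came from GENCODE release 29, in which 29703 of 29810 rows were found, and 23224 rows had a symbol. Reads were rebuilt as FPKM times exon length divided by the FPKM of 1 read on 1 kb, which gave depths of 17500319 to 17798673 reads. No filter was applied to the ranking, the level counts used a minimum mean of 1 FPKM, and deviations used log2(FPKM + 0.5). No test was made between groups, so the spread over the 3 libraries is given as SD and CV. Of 1279 genes in 70 lists, 1058 had a row, and the other 221 were not analysed here. Some members of the lists are not reported here. The members and the lists were chosen with earlier results of these data known.

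Genes were named by a rule: the 5 line markers, the 25 highest genes, the 5 highest members and up to 5 members at 0 of each list, every member of lists of 14 or fewer genes, receptor kinases, cytokine receptors, core factors and AML panel antigens at 1 FPKM or more, and the 5 lowest and 5 highest CVs at 10 FPKM or more. Exceptions are marked as chosen after their values had been seen, and further alternatives were added after seeing the data. Promoter sequences are from RefSeq on GRCh38.p14, where 12 of the 17 genes of the granule list had a single window, 8 of them without CALR, CLEC11A, NKG7 and PLPPR3. Python 3.11.15, pandas 2.3.3, numpy 2.4.6, scipy 1.17.1 and matplotlib 3.10.9 were used, and the rebuilding of reads was tested on simulated data.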

Additional observations from a re-analysis of the deposited data

How the results depend on the processing

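Of 124 alternative values of 14 results, 109 stayed within the spread between libraries or, for counts, within 1.5 times. For the median CV the bound was instead the SD, 2.18, of the 3 values with 1 library left out, which are themselves among the alternatives. For the mean of a marker, leaving out 1 of the 3 libraries cannot move the value by as much as their SD. Those values were therefore bound to stay within the spread. Scaling by size factors of 0.986 to 1.021 could also move such a mean only little. At a threshold of 5 FPKM in place of 1, the genes counted as expressed fell from 11128 to 6619, lineage genes from 65 to 39, receptor genes from 91 to 43 and transcription factor genes from 110 to 73. The count of genes at 0 was 5752, with 1220 among protein-coding genes only and 12015 with a mean below 0.1 FPKM. The share of the 100 highest genes was 41.6% of FPKM, and it was 33.9% without mitochondrial genes and 42.4% among protein-coding genes only. The median CV of 8.58% was 24.5% with no minimum level, and it ranged from 4.73% without control 1 to 8.97% when 1 library was left out. Expressed as TPM, KIT was at 725, CD34 at 117, RUNX1T1 at 53.6, MPO at 29091 and POU4F1 at 19.5, a change of unit by which 1 FPKM equals 3.55 TPM on average. The alternatives without overlapped genes and with at least 10 rebuilt reads in every library were chosen after seeing the data, and both stayed within the bound. Removing the overlapped genes took too few members from any count to pass 1.5 times, so that outcome was fixed in advance. No paired analysis was possible because the results come from 1 group and from no test. Depth limits genes at 0 to the values given with them, and the overlap of genes limits low values of single genes. Genes that cells generally use, such as RPS10 at 0.483 FPKM and ADSL at 0.831, were near 0, so a 0 or low value of a single gene may reflect the counting, which was not tested.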

Other observations

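Some genes that are usually abundant in blood cells and other cultured cells were low in all 3 libraries, and they were chosen after their values had been seen. VIM, vimentin, was at 0.0146 FPKM, S100A10, a partner of annexin A2, at 0, LGALS1, galectin 1, at 0.325 and ANXA1, annexin A1, at 0.269. None of these 4 genes had exon bases inside exons of another gene on the same strand, and VIM had 24.4% inside exons on the opposite strand. How the counting bears on these values was not tested. CBS, the cystathionine synthase, was at 0.00842 FPKM. The pseudogene EEF1A1P5 was at 893 FPKM beside its parent EEF1A1, and the part of shared reads was not tested.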
